A study of Mus musculus with 12 samples.

Results

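The Hist1 cluster on mouse chromosome 13 holds most of the replication-dependent histone genes, in 2 dense parts with a stretch of other gene families between them. With earlier results of these data known, its peaks were taken by position. They are every DNase-seq peak overlapping chromosome 13, bases 21780001 to 22160000 or 23600001 to 23880000, on build mm9. These windows of 380 kb and 280 kb held 1644 of the 1600000 peaks in 16 deposited lists. Merged over the 12 lists of single libraries, wherever peaks shared at least 1 bp, they gave 154 regions of 265371 in all. The 1440 kb between the windows gave 52 regions, and the rest of chromosome 13 gave 9450.

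DNase-seq maps the sites where chromatin is most readily cut by DNase I, and here it was done on a pair of murine erythroid cell lines to ask how far accessible sites persist in mitosis. G1E is a line of strain 129 embryonic stem cell origin in which GATA-1, a factor needed for red cell maturation, was disrupted. G1E-ER4 is a subline of it carrying an inducible GATA-1, so both share the disrupted endogenous gene, and every G1E-ER4 library had 100 nM estradiol for 22 h. GATA-1 restoration and estradiol therefore cannot be told apart. Asynchronous cultures were compared with cells arrested by 7 h of nocodazole at 200 ng/ml, fixed lightly with formaldehyde and sorted by staining of histone H3 phosphorylated at serine 10, so mitosis, drug and sorting cannot be told apart either. There were 3 libraries in each of the 4 groups. The protocol in the labels names 3 DNase I concentrations chosen per condition, and the text at hand does not say whether the libraries of a group differ in them. Nothing in the labels ties the libraries to separate cultures, so every p-value covers only the variation among these samples, and that may be technical. Peak lists hold no transcript measurements, so the labelled cell type could not be set against marker genes.

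Replication-dependent histone genes encode the core histones H2A, H2B, H3 and H4 and the linker histone H1, and are transcribed in S phase to package newly made DNA. They are short, lack introns and occur in many near-identical copies. Many H2A and H2B genes lie head to head and share a divergent promoter. In most cell types general transcription stops in mitosis, when chromosomes condense, while many promoters stay accessible to nucleases.

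RefSeq (GRCm38.p6) lists 55 histone genes in the cluster, 54 of them protein-coding. The first part runs from H2bc13 to H2bc11 with 24 histone genes (1 of H1, 8 of H2A, 8 of H2B, 2 of H3 and 5 of H4) and 31 tRNA genes among them. The second runs from H4c8 to H2ac1 with 31 (5 of H1, 6 of H2A, 7 of H2B, 7 of H3 and 6 of H4), and has Hfe, an iron-regulating gene, and Slc17a transporter genes among its histone genes. Between the parts lie 147 genes, of which 75 belong to the Vmn1r family of vomeronasal receptors and 46 are tRNA genes. The peaks are on mm9 and positions were not converted, so no peak could be assigned to a gene.

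A few promoters from the first part show what stands at the start of such genes: the divergent promoter shared by H2ac13 and H2bc13, that of the first H3 gene and that of the first H4 gene. Each is 250 bases before and 50 after the RefSeq start, 5′ to 3′ on the strand of the gene named. Capitals mark CCAAT, the box bound by NF-Y, TATAAA, consensus letters of the TATA box, and AGATAA, the form of the GATA motif searched, or their reverse complements. TATAAA begins at base -31 from the RefSeq start in H3c10 and at base -2 in H4c11, where it runs across that start.
H2ac13: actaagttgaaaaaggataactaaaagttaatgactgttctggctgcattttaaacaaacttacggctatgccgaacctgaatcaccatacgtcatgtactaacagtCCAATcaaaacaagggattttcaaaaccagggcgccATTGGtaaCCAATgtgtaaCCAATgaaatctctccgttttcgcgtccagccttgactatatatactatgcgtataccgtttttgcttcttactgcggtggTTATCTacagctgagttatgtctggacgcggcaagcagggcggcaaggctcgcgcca
H3c10: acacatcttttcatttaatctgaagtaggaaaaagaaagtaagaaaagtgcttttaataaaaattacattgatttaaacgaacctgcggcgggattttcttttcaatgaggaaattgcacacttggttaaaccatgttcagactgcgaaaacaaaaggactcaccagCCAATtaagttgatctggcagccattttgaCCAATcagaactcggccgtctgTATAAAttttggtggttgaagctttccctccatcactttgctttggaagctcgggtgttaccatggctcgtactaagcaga
H4c11: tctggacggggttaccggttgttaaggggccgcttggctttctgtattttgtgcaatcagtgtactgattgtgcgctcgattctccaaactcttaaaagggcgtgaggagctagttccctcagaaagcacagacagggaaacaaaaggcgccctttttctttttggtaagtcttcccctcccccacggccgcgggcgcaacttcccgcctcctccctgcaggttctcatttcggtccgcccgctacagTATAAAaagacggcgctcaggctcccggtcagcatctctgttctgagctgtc

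Promoter windows were at hand for 51 of the 54 protein-coding histone genes, 52 windows in all, and were searched on both strands. CCAAT was in 84.6% of them, against 37.4% of all 32851 promoters in the RefSeq table. It was in each of the 6 H1, 13 H2A, 15 H2B and 7 H3 windows, and in 3 of the 11 H4 windows. TATAAA was in 59.6%, against 13.6% of all promoters. The octamer ATTTGCAT, bound by Oct-1, was in 21.2% against 1.74%, and TTTCGCGC, a form of the E2F motif, in 17.3% against 0.323%. Both were found in H2A and H2B windows and in none of the H1, H3 and H4 windows. AGATAA was in 19.2% against 11.2%. There were 10 pairs of an H2A and an H2B gene whose windows overlapped on opposite strands, so these windows are not independent of each other. The matches describe the letters of these windows, and binding was not measured.

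The Hist1 windows held more peaks per Mb than the rest of chromosome 13 in every library, and fewer of them in mitotic than in asynchronous G1E. In asynchronous G1E the libraries had 122, 134 and 140 peaks in both windows together (132 ± 9.17, SD, n = 3). In mitotic G1E they had 71, 96 and 93 (86.7 ± 13.7). The G1E groups did not overlap, and the mitotic libraries were the lower ones. In asynchronous G1E-ER4 the libraries had 91, 109 and 115 peaks (105 ± 12.5), and in mitotic G1E-ER4 97, 73 and 81 (83.7 ± 12.2). These groups overlapped through the first asynchronous and the first mitotic library. Each list holds exactly 100000 peaks, so a count says how many of a fixed number fell in the cluster and does not measure total accessibility.

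Per Mb, the windows held 108 to 212 peaks, against 17.0 to 25.7 in the rest of chromosome 13. The density was 6.58-fold that of the rest of the chromosome as a geometric mean, with a range of 5.00 to 8.43, and was higher in 12 of 12 libraries (log2 2.72, exact two-sided sign-flip permutation test p = 0.000488, the smallest it can give; adjusted over 12 tests 0.00586). All libraries share this fixed locus, so that p-value covers only the spread between libraries and does not compare the windows with other loci. Against all autosomes and X outside the windows and the stretch between, a reference denser than the rest of chromosome 13, the log2 ratio was 1.96. The stretch between, with its vomeronasal receptor genes, was at 0.586 to 1.13 times the density of the rest of the chromosome. The median 20 kb bin of the windows held 2.5 summits per list, a level that 10.9% of all bins of the genome reached. Within the cluster, 2 bins of 20 kb had no peak in any list and 21 of 33 had a peak in all 12. The longest stretch without a peak in any of the 12 lists was 25768 bp in the first window (bases 22037669 to 22063436) and 36705 bp in the second (bases 23722874 to 23759578).

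**Figure D1:**
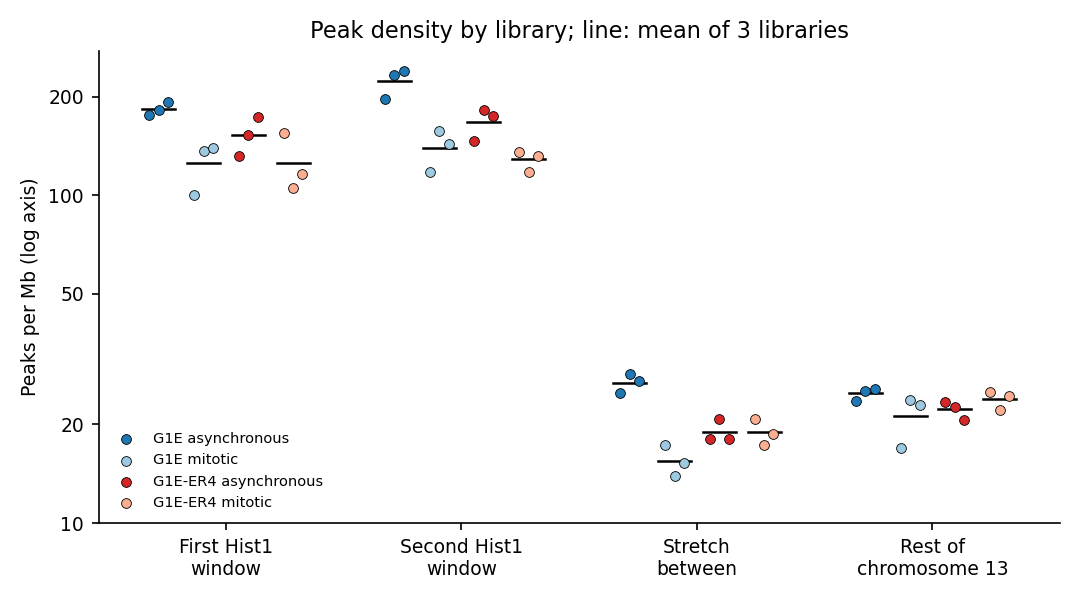
Peaks per Mb (log axis) in the first and second Hist1 windows, the stretch between them and the rest of chromosome 13; each point is 1 library, coloured by group, and each line the mean of 3. In all 12 libraries both Hist1 windows lie above the stretch between and the rest of the chromosome.

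**Figure D2:**
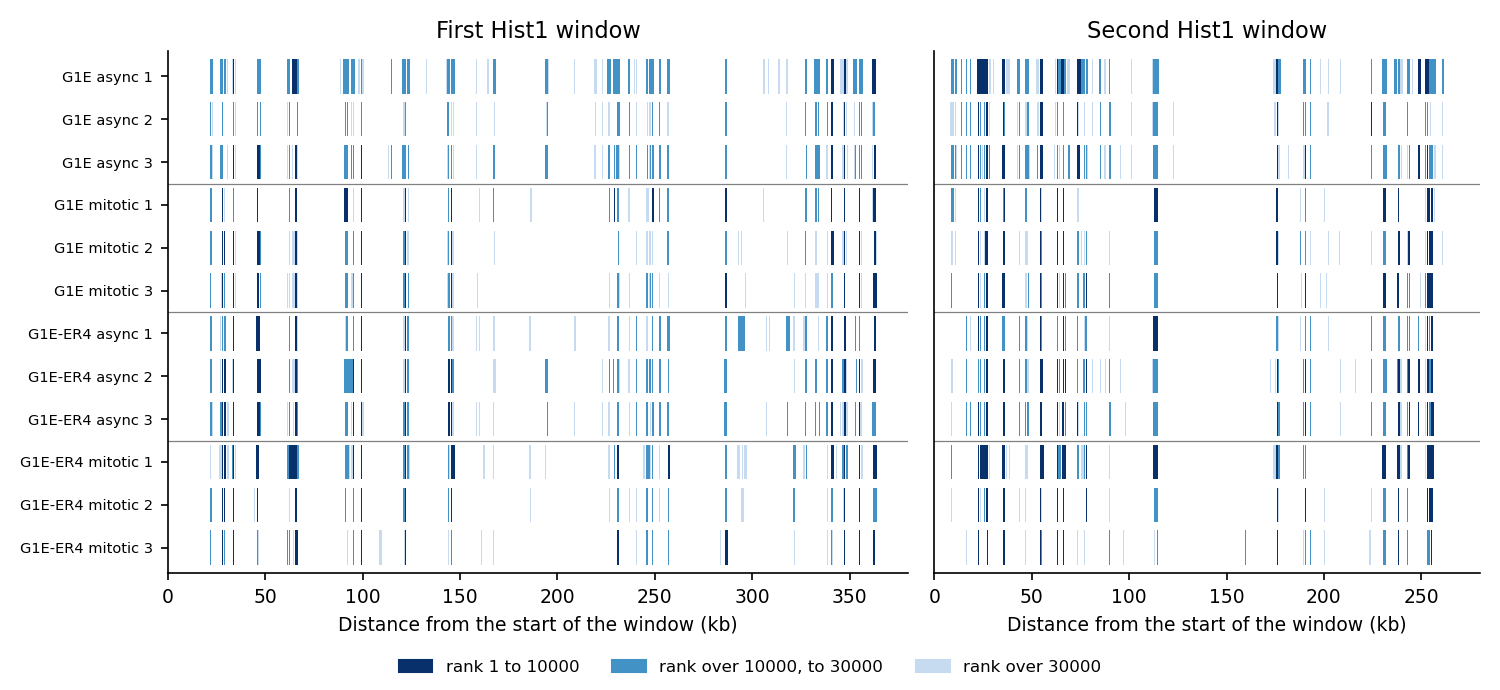
Peaks of each of the 12 libraries (rows) along both Hist1 windows, with distance from the start of the window in kb, coloured by rank within the list. The same narrow columns recur in row after row, the asynchronous G1E rows hold the most peaks, and the gaps of 25768 bp and 36705 bp are blank in every row.

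The map of both windows shows how often the same places recurred. Of the 154 regions, 39 (25.3%) were present in all 12 lists, against 4.17% of the regions in the rest of chromosome 13 and 11 of 52 (21.2%) in the stretch between. Only 34 (22.1%) were in 1 list alone, against 52.6% in the rest of the chromosome. In the first window 21 of 86 regions were in all lists, and in the second 18 of 68. The windows were also denser in peaks, and the part of density in these shares was not tested.

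The region of best mean rank in the first window was at bases 22127272 to 22127922 (651 bp). Rank 1 is the highest signal in a list, and this region had ranks of 2618, 3797 and 3057 in asynchronous G1E and 2601, 220 and 90 in mitotic G1E. In G1E-ER4 its ranks were 3423, 471 and 776 in asynchronous and 2327, 185 and 466 in mitotic cells. Every mitotic G1E rank was better than every asynchronous one, and the G1E-ER4 ranks overlapped. The first library of each group ranked it less well than the others did in 3 of the 4 groups, the exception being asynchronous G1E.

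In the second window the best was at bases 23626076 to 23627661 (1586 bp), with mean ranks of 4328 ± 1753 (SD, n = 3 here and for the next ranks) in asynchronous and 1995 ± 1039 in mitotic G1E. In G1E-ER4 they were 4461 ± 2725 and 1620 ± 724. It lies within 10 kb of the next, at bases 23634941 to 23636523, where the means were 7102 ± 1984 and 2091 ± 2028 in G1E, and 5337 ± 4986 and 2108 ± 1398 in G1E-ER4. Both lie in a 20 kb bin (bases 23620001 to 23640000) that held 6.83 summits per list on average, against a median of 0.0833 over all bins of the genome.

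Among regions present in every list, of the 12 of best mean rank (6 in each window), the one with the largest ratio of asynchronous to mitotic mean rank in both lines was at bases 23665251 to 23666500 (1250 bp). Its ranks in asynchronous G1E were 7670, 22534 and 12739, and in mitotic G1E 4118, 1356 and 543. In G1E-ER4 they were 9025, 6220 and 8114, against 659, 608 and 1009. Neither line's groups overlapped. The region was picked for that ratio, so its better mitotic ranks in both lines are not a separate observation. The widest region present in all lists, at bases 21841134 to 21846166 (5033 bp), held up to 4 separate peaks in a list, so its width comes from joining neighbouring peaks across lists. Its mean ranks were 8919 ± 3520 and 2999 ± 2419 in G1E, and 4281 ± 2954 and 1902 ± 701 in G1E-ER4.

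Fewer Hist1 peaks were called in mitosis. The number was lower by 33.3 peaks per list as the mean of both lines (exact two-sided permutation test p = 0.01, adjusted 0.03), namely -45.3 in G1E (exact p = 0.1, the smallest within a line) and -21.3 in G1E-ER4 (exact p = 0.2). With stage labels exchanged only within replicate number (the replicate block given below), the difference did not pass at an unadjusted p under 0.05. Taken against the rest of chromosome 13, the fold density was 8.03 ± 0.226 in asynchronous and 6.22 ± 0.112 in mitotic G1E (n = 3 each). It was 7.21 ± 1.28 in asynchronous and 5.29 ± 0.477 in mitotic G1E-ER4. The log2 ratio of densities fell by 0.40 in mitosis (exact permutation p = 0.005, the smallest possible; adjusted 0.02), and neither line's groups overlapped, since the asynchronous G1E-ER4 libraries were at 5.87, 7.33 and 8.43 against 5.84, 5.00 and 5.02. With the 50000 highest peaks of each list this difference was -0.25 (exact p = 0.09). Over the stretch between the windows the fold did not move one way. It was 7.45 ± 0.354 in asynchronous and 8.63 ± 2.20 in mitotic G1E, and 8.40 ± 1.09 and 6.66 ± 0.355 in G1E-ER4, without a test. That stretch itself held 38.7 ± 2.52 and 22.3 ± 2.52 peaks in G1E, and 27.3 ± 2.31 and 27.3 ± 2.52 in G1E-ER4.

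Between the lines the number of Hist1 peaks differed less. G1E-ER4 had 15.0 fewer per list as the mean of both stages (exact permutation p = 0.095, adjusted 0.133). The difference was -27.0 in asynchronous cells (exact p = 0.1) and -3.0 in mitotic cells (exact p = 1.0). The log2 density ratio was 0.20 lower in G1E-ER4 (exact p = 0.03), which did not pass after adjustment (0.072).

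The lower number in mitosis lay mainly in Hist1 peaks of middle rank. Among the 10000 highest peaks of a list, asynchronous G1E had 15, 12 and 17 in the Hist1 windows (14.7 ± 2.52), and mitotic G1E had 27, 26 and 27 (26.7 ± 0.577). The mitotic G1E libraries were all higher. From there to rank 30000 the order was the opposite, with 61, 55 and 66 (60.7 ± 5.51) in asynchronous and 18, 20 and 28 (22.0 ± 5.29) in mitotic cells. Below rank 30000 the G1E means were 56.7 ± 10.5 and 38.0 ± 12, and these groups overlapped.

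In G1E-ER4 the 10000 highest peaks held 15, 30 and 28 Hist1 peaks in asynchronous cells and 34, 25 and 21 in mitotic cells, so the groups overlapped. From there to rank 30000 they did not, with 46, 48 and 48 against 26, 23 and 24. Below rank 30000 the means were 33.3 ± 4.93 and 32.7 ± 6.66. The middle rank class was thus the lower one in mitosis in both lines. In the rest of chromosome 13 the same class held 25.3% ± 0.377 of the peaks in asynchronous and 16.1% ± 3.77 in mitotic G1E, and 20.5% ± 1.96 and 17.0% ± 1.41 in G1E-ER4. In the Hist1 windows it held 46.1% ± 4.57 and 25.4% ± 4.64, and 45.4% ± 4.57 and 29.3% ± 2.37. In the stretch between it held 41.4% ± 4.79 and 44.4% ± 15.2, and 44.9% ± 5.88 and 28.1% ± 14.1. The stretch had 16, 18 and 14 peaks of this class in asynchronous and 14, 10 and 6 in mitotic G1E. In G1E-ER4 it had 10, 15 and 12 against 6, 5 and 12. A lower mean count of this class in mitosis was thus not particular to Hist1. The 10000 highest held 11.1% of the Hist1 peaks in asynchronous and 31.4% in mitotic G1E, 7.82% and 23.6% of those in the stretch between, and 11.1% and 10.9% in the rest of the chromosome. In G1E-ER4 they held 22.8% and 31.7% of the Hist1 peaks. There the shares were 15.98% and 19.4% in the stretch between, and 10.3% and 9.84% in the rest of the chromosome. These classes were described without a test.

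**Figure D3:**
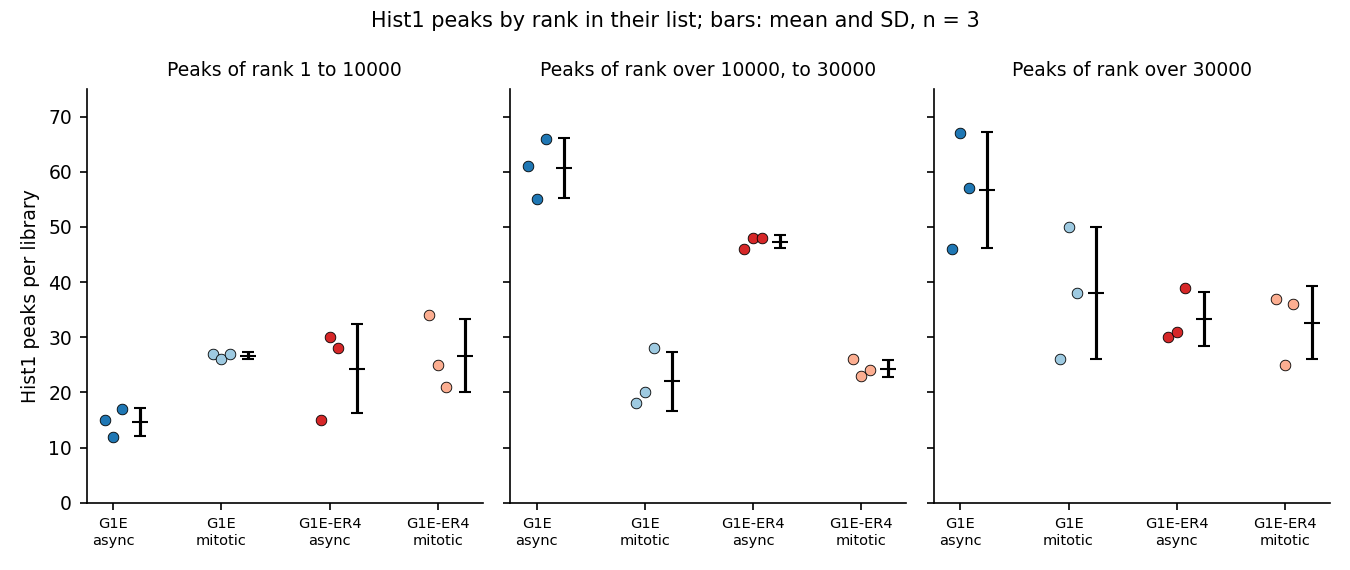
Hist1 peaks per library in 3 classes of rank within the list; points are libraries, and bars the mean and SD of 3. The mitotic points lie below the asynchronous ones at ranks over 10000 to 30000 in both lines, and above them among the 10000 highest peaks in G1E.

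The same shift appeared in the 39 regions present in every list. Their median rank in the asynchronous G1E lists was 12635, 18590 and 10555 (13927 ± 4170), and in the mitotic lists 7464, 8106 and 5205 (6925 ± 1524). In G1E-ER4 it was 11360, 8204 and 8819 (9461 ± 1673) against 6126, 5969 and 10158 (7418 ± 2375). The G1E medians did not overlap and the G1E-ER4 medians did. For 16 of the 39 regions all 3 mitotic G1E ranks were better than all 3 asynchronous ones, and for 0 were they all worse. Over all 16323 regions of the genome present in every list, the shares were 23.1% better and 9.69% worse. In G1E-ER4 the Hist1 counts were 7 better and 2 worse, against 12.8% and 17.9% genome-wide.

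Going by mean rank, 31 of the 39 Hist1 regions in the G1E lists and 28 in those of G1E-ER4 ranked better in mitosis. In the rest of chromosome 13 the numbers were 222 and 160 of 394. In the stretch between the windows they were 8 and 3 of 11. The asynchronous rank was 1.59 times the mitotic rank at the median Hist1 region in G1E and 1.36 times in G1E-ER4, against 1.12 and 0.865 in the rest of the chromosome. Ranks are relative to the other peaks of a list, so a better rank does not measure a higher signal, and neighbouring regions are not independent.

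**Figure D4:**
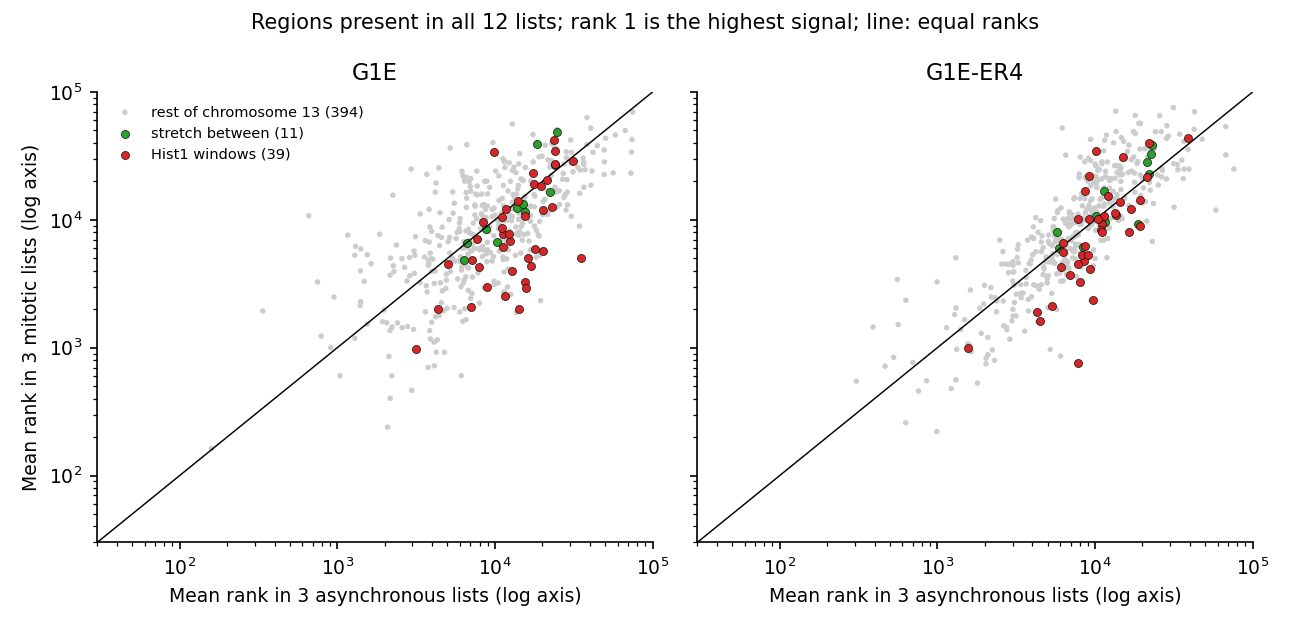
Mean rank in 3 mitotic lists against mean rank in 3 asynchronous lists (both log axes; rank 1 is the highest signal) for regions present in all 12 lists, by line. Of the 39 Hist1 regions, 31 lie below the line of equal ranks in G1E and 28 in G1E-ER4, where mitotic ranks are better.

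For mitotic recovery, regions common to 2 asynchronous lists of a line were looked up in the third asynchronous list and in each mitotic list of that line, and counted as found where a peak overlapped them. The Hist1 windows held 98 to 111 such regions in G1E and 79 to 97 in G1E-ER4. In G1E the left-out asynchronous lists found 98.2%, 90.9% and 93.9% of them, and the mitotic lists 55.2%, 71.7% and 68.8%. Every mitotic list was below every asynchronous one, and the first was the lowest. In G1E-ER4 the asynchronous lists found 81.4%, 93.9% and 98.7% and the mitotic lists 84.5%, 73.7% and 76.4%. Here the groups overlapped, since the first asynchronous list found fewer than the first mitotic list.

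The mean deficit in mitosis was 29.1 percentage points in G1E (exact permutation p = 0.05, the smallest within a line; adjusted 0.1) and 13.1 in G1E-ER4 (exact p = 0.1). Over both lines it was 21.1 points (exact p = 0.005, adjusted 0.02). The deficits of the lines differed by 15.9 points (exact p = 0.19), so a difference between the lines was not shown. Without asynchronous G1E-ER4 replicate 1 the G1E-ER4 deficit was 23.0 points (exact p = 0.1, the smallest possible there) and the difference of the lines 6.05 (exact p = 0.52). The G1E-ER4 regions then came from single asynchronous lists, so these values are another measure than the 13.1 and 15.9 points. The first window gave 26.5 points for G1E against 14 for G1E-ER4, and the second 32.1 and 12.1.

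In the rest of chromosome 13 the deficit was 36.2 points in G1E (86.3% ± 2.31 against 50.1% ± 12.4) and 20.1 in G1E-ER4 (82.2% ± 2.17 against 62.1% ± 4.02). In the stretch between the windows it was 32.2 points in G1E (94.8% ± 4.89 against 62.5% ± 8.91) and 2.43 in G1E-ER4 (86.6% ± 4.93 against 84.2% ± 4.29), which was not tested against Hist1. Against the rest of the chromosome the Hist1 deficit was smaller by 7.00 points over both lines, which did not pass the test (exact p = 0.153, adjusted 0.183). Its sign turned to 2.18 without asynchronous G1E-ER4 replicate 1, to 0.0495 without asynchronous G1E replicate 3, and to 2.28 with all autosomes and X as the reference. For 2.18 and 0.0495 the regions of the line with a list left out came from single lists, which is another measure.

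Recovery followed the asynchronous rank. Of Hist1 peaks among the 10000 highest of an asynchronous list, mitotic lists found 96.3% ± 4.24 in G1E and 99.6% ± 0.687 in G1E-ER4. Each SD is over the 3 lists searched, here the mitotic ones. In the rest of chromosome 13 they found 92.4% ± 8.80 and 99.2% ± 0.550 of this class. In the stretch between they found 100% in both lines, of 2 to 4 and 4 to 5 peaks per list. From there to rank 30000 they found 78.0% ± 9.49 and 76.4% ± 6.11 of the Hist1 peaks, against 53.5% ± 17.1 and 63.4% ± 4.07 in the rest of chromosome 13. In the stretch between the windows the shares were 79.8% ± 4.07 and 88.3% ± 2.89, so there the Hist1 shares were not the higher ones. Below rank 30000 they found 22.7% ± 9.26 and 36.4% ± 17.7, against 18.9% ± 5.01 and 32.9% ± 9.59. The other asynchronous lists found 98.9% ± 1.82 and 94.4% ± 6.91 of the Hist1 peaks of the middle class. Below rank 30000 they found 69.9% ± 17.1 and 60.5% ± 20.7, and 41.2% ± 3.71 and 41.5% ± 8.98 in the rest of chromosome 13. Recovery in asynchronous lists thus fell with rank too. In the stretch between, mitotic lists found 23.6% ± 11.1 and 47.8% ± 12.3 of this lowest class, and other asynchronous lists 70.6% ± 9.69 and 43.9% ± 16.7.

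In the opposite direction few Hist1 regions were missing. Of Hist1 regions shared by 2 mitotic lists, the asynchronous lists found 97.2% ± 1.39 in G1E and 96.7% ± 0.888 in G1E-ER4. In the rest of chromosome 13 they found 60.9% ± 2.90 and 71.6% ± 9.28. In the stretch between the windows the means were 97.8% and 89.2%. The left-out mitotic lists themselves found 88.0% ± 12.2 and 84.4% ± 6.38 of the Hist1 regions, less than the asynchronous lists did on average. Of the 154 Hist1 regions, 14 (9.09%) were in a mitotic list and in no asynchronous list. Another 43 (27.9%) were in an asynchronous list and in no mitotic list. In the rest of chromosome 13 these shares were 32.4% and 36.8%, both higher than in Hist1. In the stretch between, 9 (17.3%) and 13 of the 52 regions had these patterns. The shares were not tested, and regions in 1 list alone count toward them.

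**Figure D5:**
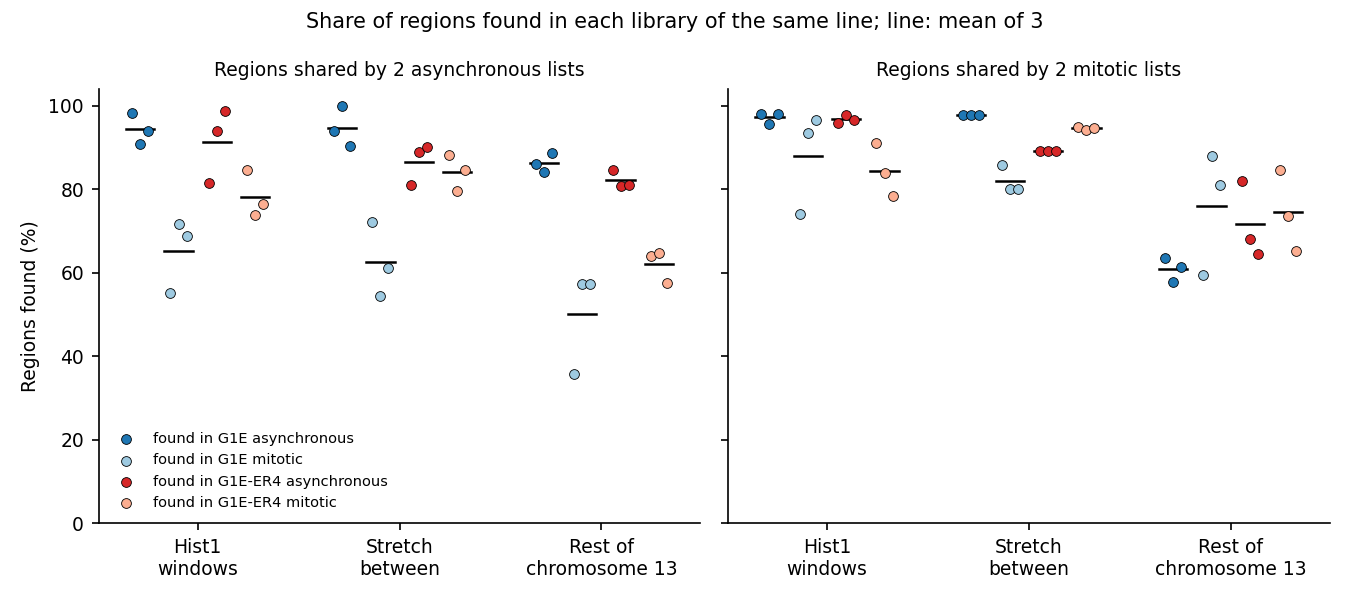
Share of regions (%) found in each library of the same line, for regions shared by 2 asynchronous lists (left) and by 2 mitotic lists (right), in the Hist1 windows, the stretch between and the rest of chromosome 13; points are libraries, lines the mean of 3. Mitotic G1E lists found 55.2% to 71.7% of the asynchronous Hist1 regions, whereas asynchronous lists found over 95% of the mitotic ones.

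Of the 87 regions in all 3 asynchronous G1E lists, 72 were in at least 1 mitotic G1E list and 15 in none, against 19.4% in none genome-wide. In G1E-ER4 2 of 68 were in no mitotic list, against 12.1% genome-wide. One region, at bases 23618130 to 23618655 (526 bp), was in all 6 asynchronous lists and no mitotic list, a pattern of 0.34% of all regions. The reverse pattern, in 0.0271% of all regions, was held by 0 Hist1 regions. Its ranks were 27125, 16401 and 22690 in asynchronous G1E and 62107, 44996 and 20355 in asynchronous G1E-ER4, so it was of middle or low rank. It lies in a 20 kb bin (bases 23600001 to 23620000) with 5.67 summits per list in asynchronous and 2.67 in mitotic G1E, and 4.33 and 1.67 in G1E-ER4. A neighbour at bases 23616412 to 23616933 was in all 6 asynchronous lists and no mitotic G1E list, but in mitotic G1E-ER4 lists at ranks 85520 and 71168.

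Between the lines, 9 of the 87 regions were in no asynchronous G1E-ER4 list, against 14.0% genome-wide. Of the 68 regions in all 3 asynchronous G1E-ER4 lists, 0 were missing from all asynchronous G1E lists, against 12.6%. The best-ranked of the 9 was at bases 23652438 to 23653945, at ranks 33798, 41077 and 23796, and it was in none of the other 9 lists. A single region, at bases 23787488 to 23788854, was in all 3 mitotic G1E lists (ranks 81032, 22866 and 81360) and in no asynchronous G1E list, against 16.6% of such regions genome-wide. It was also in asynchronous G1E-ER4 replicate 1, at rank 80272. Among the 44 regions in all mitotic G1E-ER4 lists, 0 were in no asynchronous list of that line, against 3.33% genome-wide. In mitotic cells 1 of 46 regions was in all G1E lists and no G1E-ER4 list (4.42% genome-wide), and 0 of 44 the reverse (4.22%). Over both stages 0 regions were in all 6 lists of G1E and no list of G1E-ER4 (0.0358% of all regions), and 0 the reverse (0.0848%).

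Peaks in the windows were 410 to 916 bp wide at the median of a list, against 346 to 992 bp in the rest of the chromosome. The Hist1 medians were 916, 410 and 523 bp in asynchronous G1E and 572, 540 and 577 bp in mitotic G1E. In G1E-ER4 they were 625, 653 and 554 bp against 747, 508 and 429 bp. The groups overlapped in both lines. Peaks covered 20.8%, 9.47% and 13.3% of the windows in asynchronous G1E and 7.25%, 9.14% and 9.14% in mitotic G1E. In G1E-ER4 they covered 10.3%, 11.8% and 10.9% against 13.6%, 6.34% and 5.82%. The stage difference of -4.22 percentage points (exact permutation p = 0.06, adjusted 0.103) and the line difference of -1.72 (exact p = 0.475) did not pass. Without mitotic G1E-ER4 replicate 1, the mitotic library with the widest Hist1 peaks at the median, the stage difference was -5.48 (exact p = 0.005), and without asynchronous G1E replicate 2, the one with the narrowest, it was also -5.48 (exact p = 0.02). Without asynchronous G1E replicate 1, the library with the widest Hist1 peaks, it was -2.65 (exact p = 0.105). The line difference ranged from -2.98 to -0.152 without single libraries. In the rest of chromosome 13 peaks covered 1.55% ± 0.538 in asynchronous and 1.81% ± 0.275 in mitotic G1E, and 2.18% ± 1.09 and 2.04% ± 0.968 in G1E-ER4. The Hist1 share was 9.25 ± 0.596 and 4.76 ± 0.705 times that in G1E, and 5.88 ± 2.52 and 4.18 ± 0.263 times in G1E-ER4. These folds were not tested, and they overlapped in G1E-ER4 and not in G1E.

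Covered length was then compared in bins of 20 kb across the genome, scaled to the mean covered length of a list because this ranged from 45.0 to 181 Mb, on the log2(value + 200 bp) scale with limma. Of the 33 bins in the windows, 28 had enough coverage to be tested. In G1E 12 of them were lower in mitosis and 0 higher at an adjusted p under 0.05, against 12.3% lower, 14.6% higher and 26.9% in either direction among all 43872 bins. The median difference was -1.27 over the Hist1 bins and -0.11 over all bins. Unscaled, it was -0.62 against 0.34 over all bins, and 3 Hist1 bins were lower. The count was 6 without asynchronous G1E replicate 2 or replicate 3, and 7 without mitotic G1E replicate 2. These alternative counts were not set against the share of all bins called in the same setting.

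The largest called difference was in bases 23680001 to 23700000 in the second window. Scaled covered length there was 2871, 5085 and 5437 bp in asynchronous G1E and 0, 314 and 466 bp in mitotic G1E. In G1E-ER4 it was 221, 2637 and 2104 bp against 345, 801 and 1194 bp. The G1E groups were far apart (log2 -3.46 ± 0.73 SE, limma adjusted p = 0.00432), whereas the G1E-ER4 groups overlapped. The adjacent bins 21960001 to 21980000 and 21980001 to 22000000 of the first window followed, at -2.76 ± 0.80 (adjusted p = 0.0225) and -2.86 ± 0.56 (adjusted p = 0.00263). In the latter no mitotic list of either line had a peak, so its fitted value depends on the added 200 bp. This bin is among the 12 called between stages in G1E. It passed the coverage filter only through asynchronous G1E, the group where it is high, so its call is not used as support. The bin with the most summits, bases 23840001 to 23860000, had 8.67 summits per list in asynchronous and 8.0 in mitotic G1E, and 7.67 and 6.67 in G1E-ER4.

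In G1E-ER4 limma called 0 of the 28 bins between stages (2 at an unadjusted p under 0.05), where 0.0912% of all bins were called. The median difference was -0.31, with 23 of 28 below 0. The stage effect did not pass as different between lines in any Hist1 bin (0 called, against 6.1% of all bins at the same adjusted threshold). At an unadjusted p under 0.05 there were 8. The share of all bins at the unadjusted threshold was not computed, so such counts in this paragraph are not a result about the cluster. Between the lines, 5 bins were lower in asynchronous G1E-ER4 and 0 higher, against 7.91% lower, 12.3% higher and 20.2% in either direction. That comparison shares the asynchronous G1E lists with the stage comparison in G1E. Its 5 bins include bases 21980001 to 22000000, which passed the filter only through asynchronous G1E. The count was 0 unscaled, 0 without asynchronous G1E replicate 3 and 1 without asynchronous G1E-ER4 replicate 1, not set against all bins in the same setting. The clearest was bases 23640001 to 23660000 (log2 -1.45 ± 0.39 SE, adjusted p = 0.0183), with 5903, 9920 and 9997 bp in G1E and 1699, 4046 and 3620 bp in G1E-ER4. In mitotic cells 0 bins were called between lines (1 at an unadjusted p under 0.05; 0.896% of all bins called), and the median difference was 0.05.

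Near-identical gene copies limit these values. The sources used here do not say how reads with several equally good placements were treated, and their part in the presence, absence or rank of single Hist1 peaks was not tested. Read depth is unknown from peak lists, so its part in the differences between stages was not tested either.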

How the data were processed

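DNase-seq peak lists of 12 libraries (4 groups of 3) and 4 lists pooled by the authors were used, on mm9. The submitters' processing notes name Bowtie and mm9. Which version ran, which peak caller was used and how peaks were filtered is not stated there or in the labels. Each deposited list holds 100000 peaks in descending order of a signal whose normalization is not stated, so it was used only for ranks within a list. Other units the authors deposited in these lists are the summit offset and positions. Files give no read counts, so depth and its precision are unknown, and no counting interval could be given. The number of lists limits the precision.

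Members, reference stretches, gene lists and motifs were chosen with earlier results of these data known. Groups came from the sample titles. Positions are counted from 1. Single values per library were compared by exact two-sided permutation tests, exchanging stage labels within line or line labels within stage (20 arrangements each, 400 combined, smallest p 0.005 for differences of means and 0.0025 for recovery), or by sign flips, with Benjamini-Hochberg adjustment over 12 tests. The calls of the alternatives use the unadjusted p at a threshold of 0.05. Covered base pairs per 20 kb bin with a mean of at least 200 bp were fitted with limma 3.58.1 (R 4.3.3), adjusted over all bins of the autosomes and X. Width, rank and presence were described without a test. Named regions were, per window, the 6 of best mean rank among those in all 12 lists, the 3 widest, up to 3 of best mean rank per presence pattern, and per contrast the 3 called bins of largest change. Of these, the text gives those that bear on a result. The bin with the most summits and the region with the largest ratio of asynchronous to mitotic rank were chosen after their values were seen. Calculations used Python 3.11.15, numpy 2.4.6 and pandas 2.3.3, and were tested on simulated data. Promoters are RefSeq's (GRCm38.p6). Alternatives were leaving out each library, fewer peaks per list, windows of 300 bp around summits, stricter overlap, other references, scaling, pseudocount and filter, and a replicate block.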

Additional observations from a re-analysis of the deposited data

How the results depend on the processing

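Of 283 alternative values for 17 results, 247 kept their direction and their side of the threshold (for counts, stayed within 1.5 times). The density of the windows over the rest of the chromosome, the recovery deficit over both lines and the bin counts of 0 did so under every alternative run. The density ratio by line was -0.0545 with the 50000 highest peaks (exact p = 0.69), -0.19 with all autosomes and X as reference (p = 0.135), -0.21 without both G1E replicate 1 libraries (p = 0.08), and -0.27 to -0.13 without single libraries. The density ratio by stage was -0.25 with the 50000 highest peaks (exact p = 0.09). With 300 bp around each summit the covered share by stage was -1.52 points (exact p = 0.01) and the Hist1 minus chromosome deficit -9.73 points (p = 0.03). Without single libraries the number by line ranged from -18.9 to -11.5, the covered share by stage from -5.48 to -2.65 and the Hist1 minus chromosome deficit from -8.81 to 2.18, reversed to 0.0495 and 2.18 without asynchronous G1E replicate 3 or asynchronous G1E-ER4 replicate 1, and to 2.28 against all autosomes and X. Called Hist1 bins ranged from 6 to 17 between stages in G1E and from 0 to 5 between lines in asynchronous cells. They were 3 and 2 by number of summits, 3 and 0 unscaled, and for the lines 3 with the 50000 highest peaks and 3 with a pseudocount of 50 bp. Whether calls over all bins of the genome changed in step is not given here. The causes were not tested. Leaving out an asynchronous list takes the recovery regions from single lists.

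The labels give no shared source for a replicate number. Same-numbered libraries of different groups correlated at -0.157 to 0.217 in their deviations over bins, above 0 in 11 of 12 pairs. Differently numbered ones correlated at -0.230 to 0.139, and not every library correlated best with its own number. Replicate 1 had the largest covered length in each group (113 and 130 Mb in asynchronous and mitotic G1E, 181 and 146 Mb in G1E-ER4). Whether same-numbered libraries share a source was not tested. With the replicate block the number by stage was -33.3 (exact p = 0.0625) and the density ratio by line -0.20 (p = 0.0625), where the smallest p is 0.0313. In the bins the block gave 12 calls between stages in G1E and 6 between lines in asynchronous cells.

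Depth limits what a missing peak shows: a site just under rank 100000 counts as absent.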

Other observations

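The authors' pooled lists, which belong to no test, held 122 Hist1 peaks for asynchronous G1E, 89 for mitotic G1E, 112 for asynchronous G1E-ER4 and 99 for mitotic G1E-ER4. Of these, 16, 27, 22 and 31 were among the 10000 highest of their list. The region in all 6 asynchronous lists and no mitotic list, at bases 23618130 to 23618655, was found in both pooled asynchronous lists and in neither pooled mitotic list. Of the 9 regions in all asynchronous G1E lists and no asynchronous G1E-ER4 list, 9 were in the pooled asynchronous G1E list and 0 in the pooled asynchronous G1E-ER4 list, though the pooled lists contain the same libraries and are no independent check.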
